A study of Mus musculus with 24 samples.

Results

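The response of mouse macrophages to 1 h of lipopolysaccharide (LPS) was examined in cells that had been treated with an inhibitor of the BET bromodomain proteins. The response was taken from 6 of the 24 arrays of the study, chosen by their labels alone: 3 arrays of inhibitor-treated cells at 1 h of LPS and 3 arrays of inhibitor-treated cells at 0 h, which carry the same replicate numbers. The study measured transcripts on Illumina bead arrays at 0, 1, 2 and 4 h of LPS with and without the inhibitor, with 3 replicates in each of 8 groups. All cells were bone marrow macrophages of female C57BL/6 mice aged 6 weeks, grown by standard culture. The 0 h inhibitor group received the inhibitor and no LPS, and the 1 h inhibitor group received both. The matching control groups, at 0 and 1 h, carried no inhibitor and served here for a side by side comparison. Neither the compound nor its dose, nor the LPS dose and the timing of the inhibitor, was stated in the descriptions. The design text calls the replicates biological, but no label says whether they came from separate mice, so p-values measure the spread between these samples. In bulk RNA a change in the share of responding cells and a change in RNA per cell cannot be told apart.

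LPS, a component of the outer membrane of Gram-negative bacteria, is sensed by macrophages through CD14, MD-2 (gene Ly96) and the Toll-like receptor Tlr4, whose adaptors switch on the transcription factor NF-kB and the MAP kinases that feed AP-1. Within the first hour this induces immediate early transcription factors, cytokines and chemokines, and also the inhibitors that later end the response. BET proteins such as Brd2 read acetylated histones and help to recruit P-TEFb, the kinase that releases paused RNA polymerase II, so BET inhibitors lower transcription of many but not all inducible genes.

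The arrays held the transcripts of the labelled cell type. Of 8 macrophage markers, 6 were on the array, and all 6 passed the filter on dim probes (Adgre1, Itgam, Lyz2, Fcgr1, Mertk and Cd14). All 6 lay above background in all 3 arrays of both groups. Their mean level was 11.25 to 11.46 log2 units at 0 h and 11.43 to 11.60 at 1 h. No marker of T cells, B cells, natural killer cells, dendritic cells, erythroid or endothelial cells passed. Only 3 of 4 B cell, 1 of 3 erythroid and 6 of 7 neutrophil and precursor markers were on the array. S100a8 and Mpo of 7 neutrophil and precursor markers (summed level 16.21 to 18.06 at 0 h and 15.99 to 17.10 at 1 h), Cpa3 of 3 mast cell markers (10.88 to 11.33 and 10.73 to 10.93) and Dcn of 3 fibroblast markers (9.30 to 9.47 and 9.24 to 9.50) passed, and none differed between 0 and 1 h by the test used below. Arrays of 1 group correlated at 0.977 to 0.995, and those numbered replicate 1 lay farthest from their group means. Their root mean square deviation was 0.199 to 0.246 log2 units over the 8 groups, against 0.116 to 0.173 for replicate 2 and 0.138 to 0.185 for replicate 3. Results are therefore given with and without replicate 1 where that changes them.

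In the main fit, which did not pair the arrays by replicate number, the response held few genes, and its rises were large. With that pairing 224 genes were called higher and 333 lower (below). Of 8201 genes tested, 263 (3.21%) passed an adjusted p under 0.05 in limma's moderated test with Benjamini-Hochberg adjustment (hereafter, called), 142 higher at 1 h (1.73%) and 121 lower (1.48%). The rises were the larger: their median was 1.50 log2 units, and 99 genes (1.21%) were at least 2-fold higher, 48 at least 4-fold, 17 at least 16-fold and 8 at least 32-fold. These are fitted values: for 23 of the rises all 3 arrays at 0 h lay below the background floor of 6.455 log2 units, and with such groups set to the floor the median was 1.42 and 94, 47, 16 and 8 genes reached these sizes. The falls had a median of -0.57 log2 units and ran from -1.22 to -0.31, with 3 genes (0.0366%) at least 2-fold lower. The median over all genes was -0.02. At an unadjusted p under 0.05 there were 369 genes higher (4.5%) and 600 lower (7.32%).

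To be tested a gene had to exceed the floor in every array of some group, and 594 of the genes tested (7.24%) did so only in arrays with LPS. They include 33 of the 142 rises. Such genes had to be higher with LPS at some time, so the counts and medians of the gene lists below are partly set by the filter and are given also for the members that passed at 0 h in either treatment.

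The number of calls depended on the arrays in the fit. All 142 rises and all 121 falls had the same sign in all 3 pairs of equal replicate number. The 3 arrays at 1 h did not overlap the 3 at 0 h for 141 of the rises and 118 of the falls, beside 1298 (15.8%) of all genes tested. With the replicate number as a block, which the arrays' deviations bore out, 224 genes were called higher and 333 lower, among them all 142 and all 121. The signs, the overlap and the block use the same arrays as the calls and are no independent support for them. Leaving out the 1 h array of replicate 1 left 91 rises and 48 falls, and the falls also dropped to 61 without the 0 h array of replicate 3 and to 52 without its 1 h array. Without all arrays of replicate 1, the counts were 216 higher and 220 lower, of which 128 and 81 were also called with all arrays. Without replicate 2 they were 87 and 35, and without replicate 3 they were 43 and 4.

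Promoter sequence from RefSeq (build GRCm38.p6) is shown for 4 strongly or variably induced NF-kB targets and Tnf, and for the 2 genes whose response differed from that of control cells (below). Each run covers 250 bases before to 50 bases after the transcription start, 5′ to 3′ on the gene's strand. Capitals mark letters that match 1 of 4 motifs: kappaB GGGANNTTCC on both strands, AP-1 TGANTCA on both strands, CRE TGACGTCA on both strands, and the TATA box TATAAA on the sense strand.
Cxcl1 (chr5:90890995-90891294, plus strand): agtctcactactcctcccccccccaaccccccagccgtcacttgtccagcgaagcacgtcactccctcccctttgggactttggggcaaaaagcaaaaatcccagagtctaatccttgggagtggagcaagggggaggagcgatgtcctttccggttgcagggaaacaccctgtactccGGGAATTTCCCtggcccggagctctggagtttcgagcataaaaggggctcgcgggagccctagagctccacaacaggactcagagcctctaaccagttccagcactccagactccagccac
Cxcl2 (chr5:90903649-90903948, plus strand): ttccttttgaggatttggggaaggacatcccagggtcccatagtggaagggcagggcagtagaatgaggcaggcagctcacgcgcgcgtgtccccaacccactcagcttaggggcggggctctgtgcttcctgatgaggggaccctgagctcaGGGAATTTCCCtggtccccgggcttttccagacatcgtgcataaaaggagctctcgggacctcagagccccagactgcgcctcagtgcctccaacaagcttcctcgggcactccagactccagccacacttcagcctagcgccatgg
Nfkbia (chr12:55492598-55492897, minus strand): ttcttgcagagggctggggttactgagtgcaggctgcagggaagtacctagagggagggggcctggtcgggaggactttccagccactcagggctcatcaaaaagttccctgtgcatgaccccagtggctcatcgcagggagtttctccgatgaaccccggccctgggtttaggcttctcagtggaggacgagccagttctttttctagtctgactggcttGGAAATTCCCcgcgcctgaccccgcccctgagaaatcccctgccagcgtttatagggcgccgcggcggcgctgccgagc
Il6 (chr5:30012864-30013163, plus strand): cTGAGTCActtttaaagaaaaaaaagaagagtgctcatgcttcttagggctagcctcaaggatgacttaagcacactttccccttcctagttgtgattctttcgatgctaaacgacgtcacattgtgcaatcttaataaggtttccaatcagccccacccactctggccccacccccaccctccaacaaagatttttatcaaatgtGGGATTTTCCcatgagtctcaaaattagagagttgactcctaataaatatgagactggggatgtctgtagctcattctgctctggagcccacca
Tnf (chr17:35201958-35202257, minus strand): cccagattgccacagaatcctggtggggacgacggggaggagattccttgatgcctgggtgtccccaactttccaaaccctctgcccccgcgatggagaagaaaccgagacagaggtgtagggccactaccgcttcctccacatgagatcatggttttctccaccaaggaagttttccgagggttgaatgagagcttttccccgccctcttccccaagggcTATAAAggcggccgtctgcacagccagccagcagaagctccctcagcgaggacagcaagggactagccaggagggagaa
Polg2 (chr11:106779488-106779787, minus strand): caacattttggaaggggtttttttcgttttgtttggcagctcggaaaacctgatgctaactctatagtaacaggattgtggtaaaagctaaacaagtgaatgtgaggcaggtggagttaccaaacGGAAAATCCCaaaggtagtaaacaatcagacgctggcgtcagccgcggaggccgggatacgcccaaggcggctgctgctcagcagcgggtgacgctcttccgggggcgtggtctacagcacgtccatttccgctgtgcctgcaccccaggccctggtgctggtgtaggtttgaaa
Lsmem1 (chr12:40199266-40199565, minus strand): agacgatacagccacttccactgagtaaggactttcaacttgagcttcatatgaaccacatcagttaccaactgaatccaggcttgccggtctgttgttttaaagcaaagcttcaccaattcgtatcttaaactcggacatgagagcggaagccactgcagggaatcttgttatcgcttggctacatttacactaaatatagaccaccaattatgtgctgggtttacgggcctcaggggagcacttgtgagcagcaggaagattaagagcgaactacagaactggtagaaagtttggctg
A match describes letters, not binding. In Cxcl1 the 11 capitals hold 2 overlapping kappaB matches at -71 and -70, and the same 11 letters stand in Cxcl2 at -97 and -96. Nfkbia had its kappaB match at -29 and Il6 at -44, with an AP-1 match at -249 in Il6. Tnf matched the TATA box alone, at -29. Polg2 had a kappaB match at -125, and Lsmem1 matched none of the 4 motifs in this window.

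Among the promoters available, kappaB letters stood in 8 of 77 for the 99 genes at least 2-fold higher (10.4%). They stood in 8 of 110 for all 142 genes called higher (7.27%) and in 2 of 98 for all genes called lower (2.04%). For all genes tested the count was 90 of 6245 (1.44%). The share over all 27025 promoters of the table was 1.43%. The TATA box stood in 15.6% of the promoters of the 2-fold higher genes and 12.7% of those of all genes called higher. It stood in 3.06% of those of the genes called lower and 4.85% of those of all genes tested. AP-1 letters (6.49%, 6.36%, 2.04% and 5.30%) and CRE letters (5.19%, 4.55%, 6.12% and 3.36%) differed less between the same sets. Genes can share promoters and sequence, and these shares are descriptions without a test.

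The inhibitors of NF-kB were among the strongest rises. Of 18 tested genes for NF-kB subunits, IkB proteins and feedback regulators, 8 rose (44.4%, beside 1.73% of all genes) and none fell. The list's median was 0.46 log2 units. Of the 17 that passed at 0 h, 8 rose and the median was 0.49. Nfkbia, which encodes IkB-alpha and holds NF-kB in the cytoplasm, read 9.47, 9.15 and 9.30 log2 units in the 3 arrays at 0 h and 13.89, 13.83 and 14.07 at 1 h. The replicates were close at both times, and the rise was 4.62 ± 0.13 (SE; 24.6-fold, adjusted p = 8.44e-16 by limma). Nfkbiz, a nuclear IkB protein needed for secondary NF-kB targets, went from 7.62, 7.31 and 6.72 to 14.30, 13.84 and 14.06, a rise of 6.85 ± 0.23. Tnfaip3, the ubiquitin-editing enzyme A20, rose by 5.02 ± 0.28 and Nfkbid by 4.16 ± 0.30. The other members that rose were Nfkbie (1.56, with 0.92 on a further probe that was not called), the subunit Rel (1.01), Nfkbib (0.73) and Relb (0.72). The Nfkbib call was lost without any inhibitor array other than the 1 h array of replicate 2 (highest adjusted p = 0.275 by limma), and the Relb call without the 0 h arrays of replicates 2 or 3 or the 1 h arrays of replicates 1 or 3 (highest adjusted p = 0.164 by limma). Nfkb2 (0.49), Rela (0.44) and the adaptor Traf1 (0.13) were not called.

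**Figure D1:**
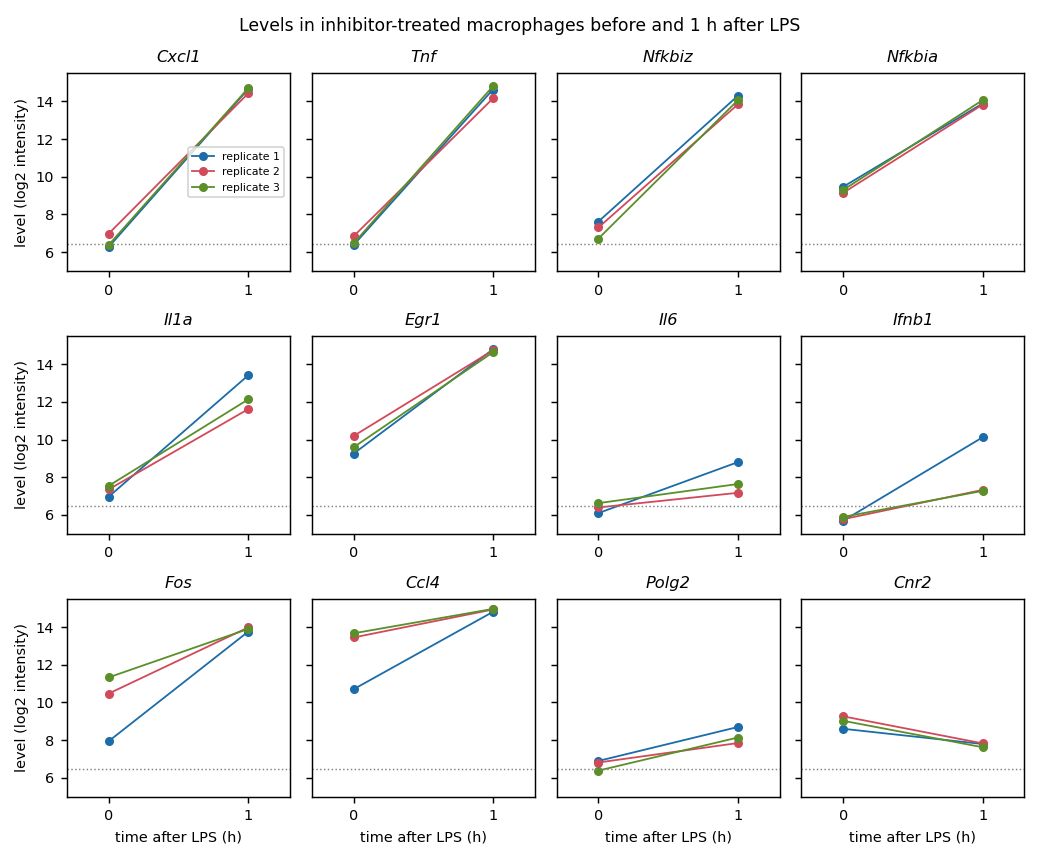
Level of 12 genes in the 6 arrays of inhibitor-treated cells, in log2 intensity, at 0 and 1 h of LPS. Points are arrays, lines join arrays of the same replicate number, and the dotted line is the background floor of 6.455. Cxcl1, Tnf, Nfkbiz and Nfkbia rose alike in all 3 pairs, Fos and Ccl4 started lowest in replicate 1, and Il6 and Ifnb1 were highest in replicate 1 at 1 h.

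Immediate early and stress transcription factors formed the list with the largest share of calls: 12 of 19 tested members rose (63.2%, against 1.73% of all genes), none fell, and their median was 1.37 log2 units by fitted values and 1.14 with members below the floor at their bound. Of the 16 that passed at 0 h, 10 rose, with a median of 1.71. Egr1, a zinc finger factor induced through serum response elements, went from 9.26, 10.19 and 9.59 to 14.79, 14.74 and 14.63, a rise of 5.04 ± 0.43. Csrnp1, a nuclear protein of early response genes, rose by 4.45 ± 0.26. Ier3, a survival regulator, rose by 3.50 ± 0.41. Fos, an AP-1 subunit, read 7.94, 10.47 and 11.33 at 0 h and 13.75, 13.98 and 13.90 at 1 h. The arrays at 1 h were close together, while those at 0 h spanned 3.39 log2 units, so that the rise was 5.81, 3.51 and 2.57 in the 3 pairs and 3.96 ± 0.73 in the fit (adjusted p = 0.00213 by limma). Without replicate 1 it was 3.04, and without replicate 2 it was no longer called (adjusted p = 0.0957 by limma).

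The other AP-1 subunits rose too: Fosb by 2.29 ± 0.38, Junb by 2.14 ± 0.24 and Jun by 1.47 ± 0.29. Egr2 rose by 2.49 ± 0.52, a call that was lost without either array of replicate 1. Klf2 rose by 1.95. Maff was below the floor in all 3 arrays at 0 h and at least 2.20-fold higher at 1 h, a call lost without replicate 3 (adjusted p = 0.0813 by limma). Myc (0.77 ± 0.19) and Atf3 (0.74 ± 0.20) rose, but their calls were lost without any of 4 arrays (0 h replicates 1 and 2, 1 h replicates 1 and 3). The 7 members not called were Klf6 (1.01), Bhlhe40 (0.60), Jund (0.55), Srf (0.34), Cebpb (0.33), Klf4 (0.07) and Mafk, which was below the floor at both times. Ppp1r15a, a stress-induced subunit of protein phosphatase 1 that reverses the phosphorylation of eIF2-alpha, stands in no list and rose by 4.33 ± 0.45.

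Among cytokines and growth factors, 7 of 24 tested members rose (29.2%, beside 1.73% of all genes) and none fell. The list's median was 0.52 log2 units (0.47 at the bounds). As 10 of the 24 passed only with LPS, 14 remain that passed at 0 h, of which 3 rose (median 0.52). Tnf, the early inflammatory cytokine, read 6.38, 6.84 and 6.47 at 0 h, near the background floor, and 14.63, 14.16 and 14.81 at 1 h. That was a rise of 7.97 ± 0.21 (251-fold, adjusted p = 2.09e-16 by limma), with no overlap and a narrow spread at both times. As 1 of its 3 arrays at 0 h lay below the floor, the size is limited at the low end. Dusp2, Clec4e, Rel, Rgs16 and Polg2 likewise had 2 of 3 arrays above the floor at 0 h, and Cxcl1, Cxcl2, Il6, Myc and Hspb1 had 1 of 3. Group means above 14, as for Tnf here, lie close to the top of the scale at 15.172, where bright probes can be compressed. Il1a went from 6.97, 7.36 and 7.55 to 13.41, 11.61 and 12.13, a rise of 5.09 ± 0.37, and Il1b, the inflammasome substrate, rose by 4.32 ± 0.45. Both were highest in replicate 1 at 1 h. Tnfsf9, a TNF family ligand of T cell costimulation, was below the floor in all 3 arrays at 0 h (6.01, 6.12 and 6.36) and at least 22.6-fold higher at 1 h.

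Other cytokines moved less and varied more. Il6, an acute phase cytokine, read 6.10, 6.40 and 6.63 at 0 h and 8.80, 7.17 and 7.64 at 1 h. The groups did not overlap, but replicate 1 rose by 2.70 and the others by 0.78 and 1.01, and the fitted rise of 1.50 ± 0.39 only just passed (adjusted p = 0.0349 by limma). Ifnb1, the first type I interferon, was below the floor at 0 h (5.69, 5.77 and 5.90) and read 10.12, 7.33 and 7.27 at 1 h, at least 3.45-fold higher (adjusted p = 0.038 by limma). Csf2, the myeloid growth factor GM-CSF, was at least 1.79-fold higher (adjusted p = 0.0339 by limma). The Il6 and Csf2 calls were lost without any array other than the 1 h array of replicate 2, and the Ifnb1 call without any 0 h array or the 1 h array of replicate 1. Without all of replicate 1 the Il6 rise was 0.90 and no longer called (adjusted p = 0.0768 by limma). Il10, the anti-inflammatory cytokine, read 5.78, 5.88 and 5.99 against 5.80, 6.36 and 6.38, all below the floor. Vegfa (1.28) and Osm (1.12) were not called, nor was Il23a, which was below the floor in all 3 arrays at 0 h.

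Chemokines divided in the same way. Of 18 tested, 5 rose (27.8%, beside 1.73% of all genes) and none fell, with a median of 0.24 log2 units. Of the 14 that passed at 0 h, 2 rose and the median was 0.01. Cxcl1, which attracts neutrophils, went from 6.28, 6.99 and 6.39 to 14.65, 14.43 and 14.70 (adjusted p = 1.89e-13 by limma). The fitted rise of 8.04 ± 0.32 is limited at both ends, since 2 of its 3 arrays at 0 h lay below the floor and its mean at 1 h was above 14. Its relative Cxcl2 went from 6.17, 6.64 and 6.41 to 12.84, 12.39 and 12.92, a fitted rise of 6.31 ± 0.42 with 2 of the 3 arrays at 0 h below the floor. Cxcl10, an interferon-inducible attractant of T cells, was below the floor at 0 h (6.04, 6.14 and 5.88) and at least 14.8-fold higher at 1 h (10.99, 9.56 and 10.47). Ccl5, another T cell attractant, read 7.29, 8.09 and 7.30 and then 10.32, 8.70 and 9.04. Replicate 2 of Ccl5 rose least, by 0.61, and the fitted rise was 1.79 ± 0.36 (adjusted p = 0.00477 by limma), or 1.17 without replicate 1. The call was lost without replicate 3 (adjusted p = 0.343 by limma) and in fits of the 6 inhibitor arrays alone (adjusted p of 0.061 with the replicate block and 0.09 without it, by limma).

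The monocyte and macrophage attractants had a wide baseline. Ccl4 read 10.70, 13.45 and 13.67 at 0 h and 14.81, 14.93 and 14.96 at 1 h. Replicate 1 was the low array at 0 h, and the rise of 2.30 ± 0.59 (adjusted p = 0.0337 by limma) was lost without the 0 h array of replicate 1 or any 1 h array. Without all of replicate 1 the rise was 1.39 and was called (adjusted p = 2.61e-06 by limma). Ccl2 went from 8.02, 10.70 and 12.13 to 11.76, 12.09 and 12.56, so that the groups overlapped, and its difference of 1.85 ± 0.86 was not called (adjusted p = 0.396 by limma), although it passed with the replicate block (adjusted p = 0.0418 by limma). Ccl3 (1.77 ± 0.80) was not called and read 8.57, 11.60 and 12.63 before and 13.12, 12.40 and 12.58 after LPS. Ccl7 (2.33) was not called either. Over all genes, 20 spanned at least 2 log2 units among the 3 inhibitor arrays at 0 h and 7 did at 1 h, and the control arrays had 19 and 14.

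Genes that restrain the response rose along with it. Of 16 tested MAP kinase phosphatases, cytokine signal inhibitors and mRNA decay factors, 5 rose (31.2%, beside 1.73% of all genes) and none fell. The list's median was 0.69 log2 units. Of the 13 that passed at 0 h, 4 rose and the median was 0.96. Socs3, which blocks JAK and STAT signalling, went from 8.25, 9.31 and 9.89 to 14.41, 13.82 and 13.99, a rise of 4.92 ± 0.39. Dusp2, a nuclear MAP kinase phosphatase, rose by 4.30 ± 0.37 and Dusp1, which inactivates the stress kinases, by 2.37 ± 0.41. Zfp36 (tristetraprolin), which speeds decay of the Tnf mRNA, rose by 2.72 ± 0.28, and Zc3h12a, a ribonuclease for cytokine mRNAs, by 2.23 ± 0.31. Cish (1.46), Dusp8 (1.10) and Dusp6 (-0.22) were not called, nor was Socs1, which was below the floor at both times.

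Most of the sensing machinery was without a call, as were most genes tested. Of 26 tested Toll-like receptors, adaptors and kinases, 3 rose (11.5%) and 1 fell (3.85%), beside 1.73% and 1.48% of all genes. The median was -0.04 log2 units, and the 25 that passed at 0 h gave the same 3 rises, 1 fall and median. Map3k8, the kinase upstream of ERK in this pathway, went from 8.65, 7.52 and 7.78 to 9.62, 9.69 and 9.71 (1.69 ± 0.25), a call lost without replicate 2 (adjusted p = 0.0779 by limma) or replicate 3 (adjusted p = 0.0813 by limma). The coreceptor Cd14 rose by 1.11 ± 0.28 and the lipopeptide receptor Tlr2 by 1.00 ± 0.27. The adaptor Tirap, which brings Myd88 to the membrane, fell by 0.77 on the log2 scale on its brightest probe, while its 3 kept probes ranged from -0.77 to -0.22. The calls of Cd14, Tlr2 and Tirap passed narrowly (adjusted p of 0.0336, 0.0396 and 0.027 by limma), and leaving out any 1 of several arrays lost them. The Cd14 call was lost without the 0 h arrays of replicates 2 or 3 or the 1 h arrays of replicates 1 or 3, the Tlr2 call without any array other than the 1 h array of replicate 2, and the Tirap call without any array other than the 0 h array of replicate 1. Tlr4 read a difference of -0.23, Myd88 of -0.12 and Ticam1 of -0.13, none of them called.

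Of 24 tested interferon regulatory factors and interferon-induced genes, Irf1 and Isg15 rose (8.33%, beside 1.73% of all genes) and none fell. Irf1, itself an NF-kB target, went from 11.30, 10.04 and 9.79 to 14.14, 13.55 and 13.96 (3.50 ± 0.37). Isg15, a ubiquitin-like modifier, rose by 1.39 ± 0.33, a call lost without any array other than the 1 h array of replicate 2. Oasl1 (1.10), Rsad2 (0.89) and Ifit2 (0.55) were not called, nor was Mx2, which was below the floor in all 3 arrays at 0 h. Both rises were among the 19 members that passed at 0 h, whose median was 0.16. The whole list's median of 0.15 lay near the -0.02 of all genes.

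Surface receptors and adhesion proteins of activation gave 7 rises among 20 tested (35.0%, beside 1.73% of all genes) and no fall. Of the 15 that passed at 0 h, 6 rose. Ccrl2, which presents the attractant chemerin, went from 7.62, 8.48 and 7.91 to 12.03, 11.36 and 11.76 (3.72 ± 0.23). Cd69, an early activation marker, rose by 2.77 ± 0.32, the glycolipid receptor Clec4e (Mincle) by 2.52 ± 0.24, the integrin ligand Icam1 by 2.31 ± 0.22 and Cd83 by 1.65 ± 0.30. Cd40, a costimulatory receptor, rose by 2.55 ± 0.44 on its brightest probe, while its 4 kept probes ranged from 0.05 to 2.55. The remaining rise, of the fatty acid receptor Gpr84, started below the floor in all 3 arrays, and its call was lost without any 1 of the 6 inhibitor arrays (highest adjusted p = 0.21 by limma). Of 16 effector enzymes, only Sod2, the mitochondrial superoxide dismutase, rose (1.07 ± 0.14), which is 6.25% beside 1.73% of all genes. Arg1 (-0.12) was not called, nor were Ptgs2, below the floor in all 3 arrays at 0 h, and Nos2, below it at both times.

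Regulators of survival and growth arrest gave 9 rises among 20 tested members (45.0%, beside 1.73% of all genes) and no fall. The list's median was 1.11 log2 units. All 9 were among the 18 that passed at 0 h (median 1.17). Phlda1, a pleckstrin homology domain protein linked to apoptosis, went from 8.09, 8.09 and 8.49 to 13.65, 13.21 and 13.82 (5.34 ± 0.58). Gadd45b, a stress sensor that acts on MAP kinase signalling, rose by 3.89 ± 0.28 and Gadd45a by 2.00 ± 0.38. The kinases Plk2 (2.78 ± 0.31), Pim3 (2.15 ± 0.29) and Pim1 (1.52 ± 0.27) rose, as did the cell cycle inhibitor Cdkn1a (1.30) and the death inducers Bcl2l11 (1.21) and Pmaip1 (1.10). The Bcl2l11 call was lost without any inhibitor array other than the 1 h array of replicate 2 (highest adjusted p = 0.279 by limma), and the Pmaip1 call without replicate 2 or 3. Mcl1 (-0.08) and Bcl2 (0.10) were not called, nor was Birc3, which was below the floor in all 3 arrays at 0 h. Without all arrays of replicate 3, 5 survival regulators, 6 immediate early factors, 5 NF-kB genes, 4 cytokines, 3 chemokines, 3 signal inhibitors and 4 surface receptors were called higher. That fit called 43 genes higher over all genes tested. Among 15 FoxO and glucocorticoid receptor targets, Cited2 (2.45 ± 0.34), Irs2 (1.73 ± 0.29) and Ccng2 (1.45 ± 0.29) rose and none fell, and none was called without replicate 3. No Toll-like receptor, adaptor or kinase was called higher without replicate 2 or without replicate 3.

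**Figure D2:**
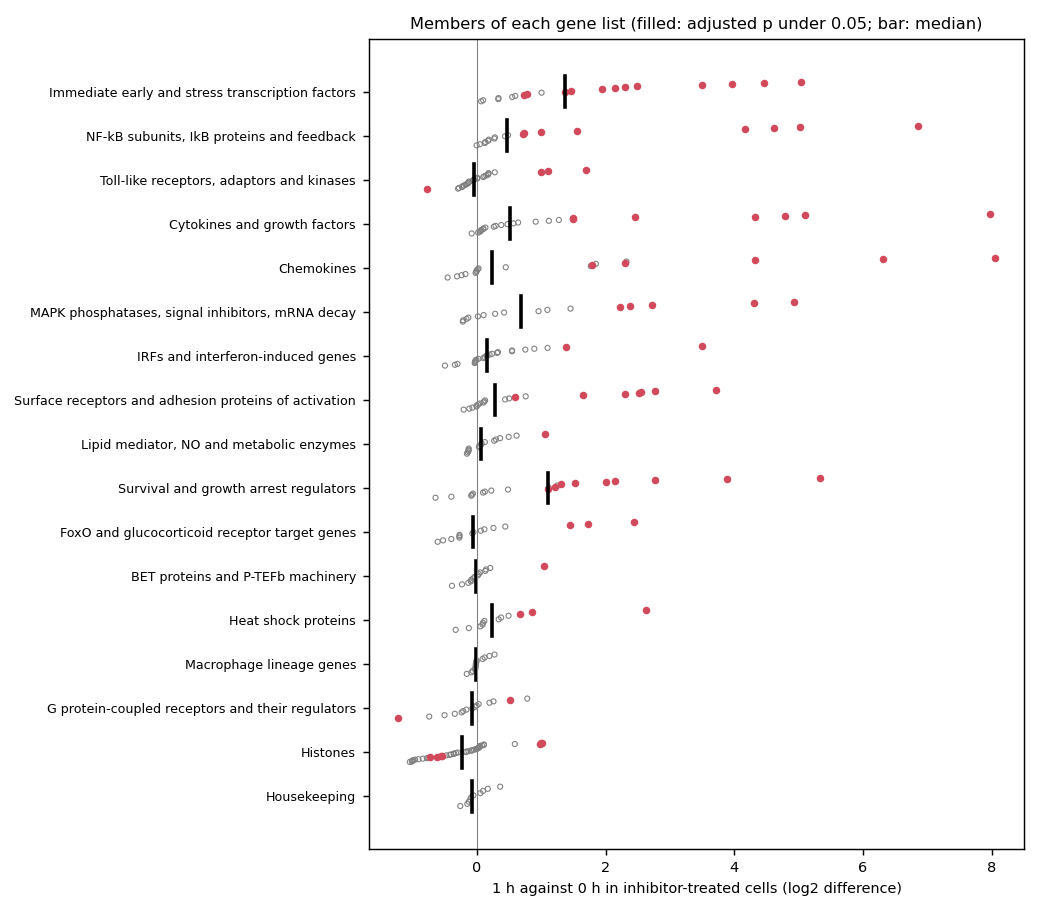
Log2 difference between 1 and 0 h of LPS in inhibitor-treated cells for every tested member of 17 gene lists. Filled points passed an adjusted p under 0.05, open points did not, and bars are list medians. Genes below the background floor are drawn at their fitted values. Immediate early factors (12 of 19 called higher) and survival regulators (9 of 20) have the highest medians, 1.37 and 1.11, and the histones' median is the lowest, -0.23.

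Little moved among the targets and partners of the inhibitor. Of 14 tested genes for BET proteins and the P-TEFb machinery, Brd2 alone rose (7.14%, beside 1.73% of all genes) and none fell. Brd2 read 12.89, 11.94 and 11.52 at 0 h and 13.04, 13.23 and 13.21 at 1 h. The groups did not overlap, but replicate 1 rose by 0.14 and the others by 1.29 and 1.70, giving 1.04 ± 0.21 (adjusted p = 0.00442 by limma), and the call was lost without replicate 2 or replicate 3. Hexim1, which holds P-TEFb inactive, differed by 0.03 ± 0.26 and Cdk9, the kinase of P-TEFb, by -0.09. Of 12 heat shock proteins, Hspa1a (2.62 ± 0.41), Dnajb4 (0.87 ± 0.15) and Hspb1 (0.67 ± 0.10) rose, and none was called without replicate 3. Rgs16 rose (0.51, a call lost without any array other than the 1 h array of replicate 2) and Cnr2 fell among 15 G protein-coupled receptors and their regulators. Each was 6.67% of that list, beside 1.73% of all genes called higher and 1.48% called lower. None of 14 macrophage lineage genes and none of 10 housekeeping genes was called, beside 3.21% of all genes. With that share, no call in lists this small says little about them.

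Histone genes had the lowest median of the lists, -0.23 log2 units over 42 tested. Of these, 7.14% were called higher and 9.52% lower, beside 1.73% and 1.48% of all genes. H3c13 (1.02 ± 0.17), H3c14 (0.99 ± 0.14) and H3f3b (0.99 ± 0.16) rose, although a further probe of H3c14 read -0.01. H2ac6 (-0.73 ± 0.16), H4c18 (-0.62 ± 0.16) and H4c12 (-0.53) fell, and H2aw was at least 1.17-fold lower, with all 3 arrays at 1 h below the floor. With the replicate block 17 histone genes were called lower, without replicate 1 there were 9, and without replicate 3 there were 0. Over all genes tested, these fits called 333, 220 and 4 lower, so the histone counts moved with the totals. The H4c12 call was lost without the 0 h array of replicate 3 or the 1 h arrays of replicates 1 or 3 (highest adjusted p = 0.106 by limma). The H4c18 call was lost without any array other than the 1 h array of replicate 2, and the H2ac6 call without the 0 h array of replicate 3 or the 1 h arrays of replicates 1 and 3. H2ac12 (-1.04) and H2ac22 (-1.01) differed by more without a call. Histone copies are nearly identical, so a probe can pick up other members and single values are uncertain.

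The falls were smaller than the rises. Cnr2, the cannabinoid receptor of immune cells, had the largest, from 8.60, 9.26 and 9.02 to 7.79, 7.82 and 7.62 (-1.22 ± 0.15, adjusted p = 1.45e-05 by limma). The uncharacterised AI467606 followed, from 10.35, 10.18 and 9.99 to 9.02, 9.09 and 8.80 (-1.20 ± 0.18). Rassf1, a Ras association domain protein and tumour suppressor, fell by 1.04 on the log2 scale. Zinc finger genes supplied 5 of the 15 largest falls: Zkscan14 (from 9.02, 8.35 and 7.93 to 7.38, 7.65 and 7.28), Zfp472 (-0.98), Zfp46 (-0.95), Zfp87 (-0.95) and Zfp12 (-0.88). The others were Pnrc2 (-0.96), an mRNA decapping partner, LTO1 (-0.95), the histone methylation reader Phf13 (-0.93, with -0.36 on a further probe that was not called), Dph2 (-0.92) of diphthamide synthesis, the RNA-editing deaminase Apobec1 (-0.90), Pwwp2b (-0.87) and Ngdn (-0.84). The Zfp12 call was lost without any array other than the 1 h array of replicate 2, and those of Zkscan14 and Phf13 without either array of replicate 1 or the 1 h array of replicate 3.

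The genes called overlapped with those of control cells over the same interval. Control cells had 176 genes called higher (2.15%) and 87 lower (1.06%). Of the rises, 99 were called in both treatments, which is 69.7% of those of inhibitor-treated cells and 56.2% of those of control cells. Of the falls, 54 were called in both (44.6% and 62.1%), and none of the genes called in both had opposite signs. Of 43 rises called with the inhibitor but not without it, 40 had the same sign in control cells, and of 77 called in control cells but not with the inhibitor, 69 had the same sign with it. Over the 219 genes called higher in either treatment, the median was 0.91 with the inhibitor and 1.13 in control cells, and 132 (60.3%) were larger in control cells. With groups below the floor set to it, the medians were 0.83 and 1.10 and again 132 were larger in control cells. For the 154 called lower in either, 96 fell more with the inhibitor and 58 fell more in control cells. Counts of this kind include the noise of both calls and do not test a difference for any gene.

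**Figure D3:**
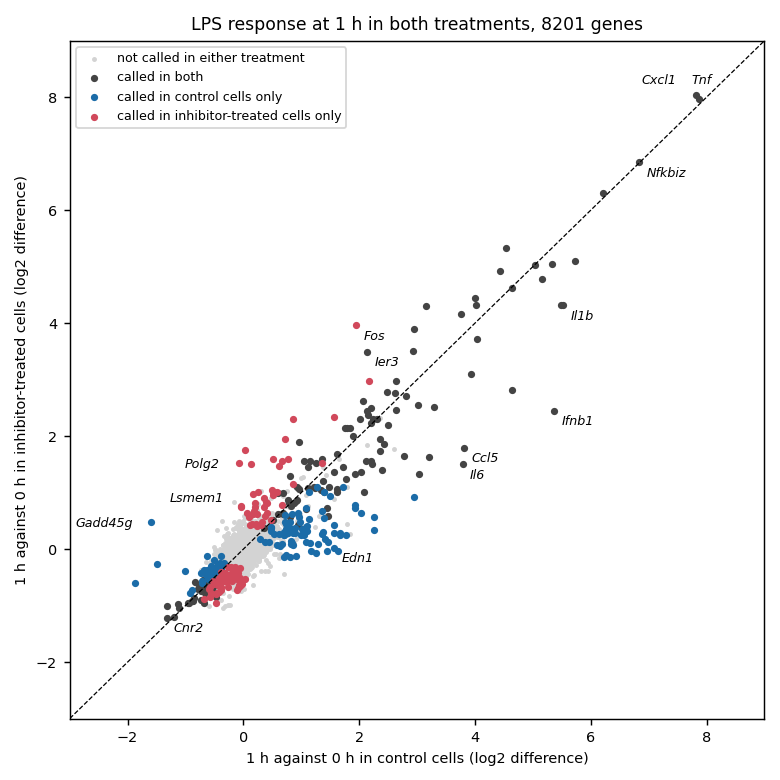
Log2 difference between 1 and 0 h of LPS for 8201 genes, in control cells (horizontal) and inhibitor-treated cells (vertical), with the dashed line marking equal responses. Points are genes, coloured by the treatments in which they were called and drawn at fitted values also below the background floor. Tnf, Cxcl1 and Nfkbiz lie on the line, Ifnb1, Il6, Ccl5 and Edn1 below it, and Polg2, Fos and Gadd45g above it.

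Lists differed in which treatment had the larger median. Among NF-kB genes, 8 rose with the inhibitor and 11 in control cells (medians 0.46 and 0.99), among cytokines 7 and 12 (0.52 and 1.10), and among MAP kinase phosphatases and related inhibitors 5 and 8 (0.69 and 1.23). For chemokines the counts were 5 in each treatment, with medians of 0.24 and 1.13. Immediate early factors went the other way, with 12 rises with the inhibitor and 7 in control cells and medians of 1.37 and 0.72. Survival regulators had 9 in each, with medians of 1.11 and 0.84. Among the members that passed at 0 h, the medians with the inhibitor and in control cells were 0.49 and 1.08 for NF-kB genes, 0.52 and 0.88 for cytokines, 0.01 and 0.32 for chemokines, 0.96 and 1.38 for the inhibitors, 1.71 and 0.79 for immediate early factors and 1.17 and 0.91 for survival regulators. Without the replicate block no member of any list had a called difference between treatments, and with it 4 did, Edn1, Traf1, Gadd45g and Dnajb1 (below).

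The difference of the 2 responses, tested as an interaction in the same limma fit, was called for 2 genes (0.0244%), both rising more with the inhibitor, and for 0 genes in the other direction. At an unadjusted p under 0.05, 62 genes (0.756%) had a higher difference with the inhibitor and 104 (1.27%) a lower one. Polg2, the accessory subunit of the mitochondrial DNA polymerase, read 6.89, 6.81 and 6.38 at 0 h and 8.69, 7.84 and 8.13 at 1 h with the inhibitor, against 6.64, 6.55 and 6.53 and then 6.44, 6.64 and 6.41 in control cells. It rose by 1.53 ± 0.17 with the inhibitor and differed by -0.08 in control cells, a difference of 1.61 ± 0.24 (adjusted p = 0.00754 by limma). Lsmem1, which encodes a leucine-rich membrane protein, read 6.11, 6.25 and 6.12 and then 6.85, 6.84 and 7.11, at least 1.39-fold higher, while all 6 control arrays stayed below the floor. Its difference was called (adjusted p = 0.00754 by limma), but the fitted 0.81 ± 0.12 is no measured size, since only the 1 h inhibitor arrays lay above the floor. Polg2 lost the difference call without replicate 2 or 3 and Lsmem1 without any whole replicate (adjusted p of 0.0521 without replicate 1 by limma), and with replicate 3 left out no difference was called in either direction.

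With the replicate block, 5 differences were called in the direction of the inhibitor and 8 in that of control cells. Gadd45g, the third Gadd45 gene, fell in control cells by 1.59 on the log2 scale and differed by 0.49 with the inhibitor (difference 2.08 ± 0.42, adjusted p = 0.104, and 0.0158 with the block, by limma). The cochaperone Dnajb1 and Icam4 completed the group with Polg2 and Lsmem1. Among the groups at 0 and 1 h, Icam4 was above the floor only with the inhibitor at 1 h. Its difference is therefore no measured size. Edn1, which encodes the vasoconstrictor endothelin, stayed below the floor with the inhibitor (5.90, 6.35 and 6.19, then 6.05, 6.19 and 6.27) and rose in control cells from 6.13, 6.22 and 6.20 to 7.98, 7.24 and 8.05. The rise in control cells was at least 2.46-fold, and the difference was called with the block only (adjusted p = 0.104, and 0.013 with it, by limma). Traf1 (difference -1.33 ± 0.31, adjusted p = 0.187, and 0.0162 with the block, by limma), the gap junction gene Gja1 (-1.52), the caveolae gene Cav1 (-1.91), Klhl25 (-1.20) and Arhgef3 (-0.85) followed. Among the groups at 0 and 1 h, Gm6377 and St3gal6, the others, were above the floor only in control cells at 1 h. In control cells both were also above it at 2 and 4 h. Polg2 and Lsmem1 were named because the test without the block called them. Gadd45g, Edn1 and Traf1 came from a panel chosen with earlier results of these data known. All other genes of this paragraph were picked after their values were seen.

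Several other differences, some of them larger, passed in neither fit. Il6 read 6.44, 6.81 and 6.96 and then 11.47, 9.42 and 10.68 in control cells, a rise of 3.79 ± 0.39 against 1.50 with the inhibitor. The difference was -2.29 ± 0.55 (adjusted p = 0.22, and 0.0967 with the block, by limma), with a smaller rise in each of the 3 pairs. Ifnb1 rose in control cells to 12.77, 10.50 and 10.49, at least 27.8-fold, beside at least 3.45-fold with the inhibitor, and the difference was not called (adjusted p = 0.778 by limma). Ccl5 differed by -2.03 ± 0.51 (adjusted p = 0.312 by limma) and Rel by -1.08 ± 0.27 (adjusted p = 0.312 by limma). Fos, with 12.26, 12.67 and 12.48 in control cells at 1 h, differed by 2.01 ± 1.03 in the other direction. For Tnf (0.10 ± 0.29), Nfkbiz (0.01 ± 0.33), Nfkbia (-0.02 ± 0.19), Tnfaip3 (-0.02 ± 0.40), Cxcl1 (0.23 ± 0.45) and Cxcl2 (0.10 ± 0.59) the difference was smaller than its SE. With the inhibitor, the 1 h means of Tnf, Nfkbiz and Cxcl1 were above 14, and Tnf, Cxcl1 and Cxcl2 started near the floor. A difference between treatments could be understated there.

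The later arrays place the 1 h values on a course. The 2 h and 4 h differences use the same 0 h arrays, so they are given side by side and not compared. In inhibitor-treated cells Tnf stood 7.97, 7.38 and 7.10 log2 units above 0 h at 1, 2 and 4 h, and Nfkbia 4.62, 4.36 and 3.85. Among immediate early and stress genes, Egr1 stood at 5.04, 2.39 and -0.43, Fos at 3.96, -1.09 and -2.15, and Ppp1r15a at 4.33, 1.98 and 0.40. Among cytokines, chemokines and receptors, Il6 stood at 1.50, 3.78 and 5.30, Ccl5 at 1.79, 6.32 and 7.31, and Cd40 at 2.55, 5.91 and 7.48. Polg2 stood at 1.53, 0.23 and -0.01. The group means of Lsmem1 were 6.93 at 1 h and below the floor at 0 h (6.16), 2 h (6.39) and 4 h (6.21).

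**Figure D4:**
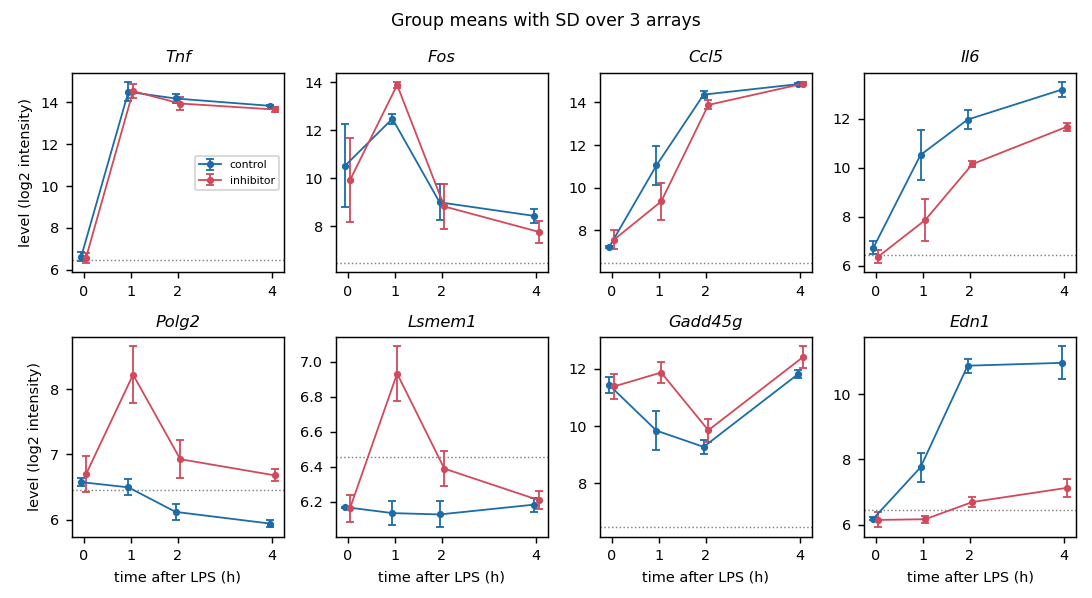
Mean log2 intensity of 8 genes over 3 arrays at 0, 1, 2 and 4 h of LPS in control (blue) and inhibitor-treated (red) cells, with bars for the SD and a dotted line at the background floor. Vertical axes differ between panels. Polg2 and Lsmem1 have their highest mean at 1 h in inhibitor-treated cells, and Edn1 leaves the floor in control cells at 1 h.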

How the data were processed

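The analysis used the table of processed values that the authors deposited, with 25697 probes on each array. Its scale is unstated. From their range of 5.354 to 15.172 the deposited values were taken as log2 intensities, and as quantile normalized by the authors because ranked values of any 2 arrays were within 0.004 at 99% of ranks. Per the submitters' processing notes limma was used, with no version given. Raw signals were also deposited, but their 72 value columns are named by array position only and could not be tied to samples, so they were left out. For arrays, their number limits the precision.

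Platform annotation named 23978 probes with 1 gene symbol, 0 with several and 1719 with none. A floor of 6.455 was the 99th percentile of 1302 olfactory and vomeronasal receptor probes. Probes above it on all 3 arrays of at least 1 group were kept (10887), and a gene was represented by its brightest kept probe, giving 8201 genes, 618 of them without a symbol. A fold against a group wholly below the floor is a lower bound computed against the floor.

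The test was limma's lmFit and eBayes (limma 3.58.1, R 4.3.3) on the 8 group means of all 24 arrays (16 residual degrees of freedom, median residual SD 0.168 log2 units). Tests were two-sided, with Benjamini-Hochberg adjustment over all genes within a contrast and a call at an adjusted p under 0.05. A ± value is the SE of the fit unless stated. Same-numbered arrays deviated together from their group means: between 0 and 1 h of the inhibitor the correlations were 0.496, 0.469 and 0.269 for replicates 1, 2 and 3, and the lowest over 28 pairs of groups was 0.106, so the numbers were taken to pair the samples and the block was fitted as an alternative. Alternatives also covered the filter, probes, scaling, background, moderation and left-out arrays.

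The genes named were the 20 largest called rises and 15 largest called falls whose arrays did not overlap, called differences between treatments, up to 6 called members of each list, and a panel of 37 genes. The members, lists and panel were chosen with earlier results of these data known. Other list members are named as examples.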

Additional observations from a re-analysis of the deposited data

Results flagged for a closer look

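Polg2 and Lsmem1 were singled out because their change between 0 and 1 h of LPS differed between inhibitor-treated and control cells in the interaction test of limma. For Polg2 the difference was 1.61 log2 units (adjusted p = 0.00754 by limma), higher in 3 of 3 inhibitor pairs, with the control pairs at -0.21, 0.08 and -0.12. For Lsmem1 the fitted difference was 0.805 (adjusted p = 0.00754 by limma), also higher in 3 of 3 inhibitor pairs. Its 3 inhibitor arrays at 0 h and its 6 control arrays at 0 and 1 h were below the background floor, so that value is no measured size. Left-out single arrays kept both calls, while left-out whole replicates did not, apart from Polg2 without replicate 1 (adjusted p = 0.0172 by limma). Their cause was not tested.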

How the results depend on the processing

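Of the 94 named genes, 84 were called at 1 h under the inhibitor, and no named value changed sign under any alternative. Alternatives that kept all 24 arrays cost 8 of them the call, fitting the 6 inhibitor arrays alone cost 18, or 11 with the replicate block (among them Ccl4, Ccl5, Il6, Ifnb1, Brd2, Myc and Atf3), leaving out some single inhibitor array cost 17, and leaving out some whole replicate, an alternative chosen after seeing the data, cost 50. The replicate block added Ccl2. For the 1 h response under the inhibitor, the block gave 224 rises and 333 falls, and left-out arrays or replicates gave 43 to 216 rises and 4 to 220 falls. Falls numbered 75 with only probes above the floor on all 24 arrays and 44 with the 6 inhibitor arrays alone and no replicate block. In control cells the block gave 275 rises and 243 falls, left-out arrays or replicates 61 to 212 rises and 11 to 92 falls, and falls numbered 57 with only probes above the floor on all arrays and 42 when centred on housekeeping genes. Differences in the direction of the inhibitor numbered 0 with only probes above the floor on all arrays, 5 with the block and 0 to 5 with left-out arrays or replicates. Differences in the direction of control cells numbered 8 with the block, 2 when centred on housekeeping genes, 6 after background subtraction, 1 with trend and robust moderation, and 0 to 11 with left-out arrays or replicates. Fewer arrays and fewer genes change the power of these fits, and no other cause was tested. Levels near the floor of 6.455 and group means above 14 limit the measured size of a change.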

Other observations

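Genes whose symbols start with Zfp, Zkscan, Zscan or Zbtb, a group chosen after values were seen and not tested as a set, held 16 of the 121 falls at 1 h with the inhibitor. Of 148 such genes tested, 16 were called lower (10.8%, beside 1.48% of all genes) and 1, the mRNA decay factor Zfp36, was called higher. Their median difference was -0.18 log2 units, beside -0.02 over all genes. Beyond the 5 among the largest falls, they included Zscan12 (-0.67 ± 0.18), Zfp97 (-0.64 ± 0.11) and Zbtb14 (-0.48 ± 0.12), and also Zfp623 and Zfp658, which were below the floor in all 3 arrays at 1 h. In control cells Zkscan14 (-1.33), Zfp472 (-1.13), Zfp87 (-0.95), Zfp97 (-0.77), Zbtb14 (-0.63) and Zfp623 were also called lower. The others of the 16 were not called there.

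Baseline levels of a few chemokines and immediate early genes spread widely between replicates before LPS and came together after it. With the inhibitor, the 3 arrays spanned 4.10 log2 units at 0 h and 0.80 at 1 h for Ccl2, 4.05 and 0.73 for Ccl3, 3.86 and 0.38 for Ccl7 and 3.39 and 0.22 for Fos. In control cells the spans at 0 h were 4.11 for Ccl2, 4.19 for Ccl3, 4.00 for Ccl7 and 3.43 for Fos. Replicate 1 was the lowest inhibitor array at 0 h for each of them. The cause was not tested.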
